A study of Homo sapiens with 4 samples.

Results

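WNT5A and ROR1 are a ligand and a receptor of the Wnt pathway whose mRNAs both carried peaks of crosslinked MARF1 in HEK293 cells. Both genes were selected on the peak calls: each had to be named at an interval shared by the replicates. They are 2 of the 117 genes in the final peak list and hold 2 of its 282 intervals, together with 4 of the 719 peaks of replicate 1 and 2 of the 534 peaks of replicate 2. MARF1 is an RNA-binding protein with a NYN endonuclease domain, RNA recognition motifs and LOTUS domains. RNA bound by F-MARF1ΔNYN, a FLAG-tagged form that lacks the nuclease domain, was recovered by UV crosslinking and immunoprecipitation (iCLIP) with a FLAG antibody and sequenced. HEK293 is a human embryonic kidney cell line, here labelled HEK293-Trex, in which doxycycline switches on the transgene. There were 2 biological replicates of F-MARF1ΔNYN, induced with 100 ng/mL doxycycline for 12 hr, and 2 of control HEK293 cells without a FLAG-tagged protein. All 4 libraries came from cells crosslinked at 254 nm with 400 mJ per square centimetre. The sources used here do not say whether the control cells received doxycycline or whether the transgenic line was 1 clone. The protein was expressed from a transgene and cannot cleave RNA through its NYN domain, so the peaks describe contacts of this form and not of endogenous MARF1. Peak lists hold no expression levels, so markers of the cell line were not checked.

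Wnt proteins are secreted lipid-modified ligands. WNT5A acts mainly outside the beta-catenin branch of the pathway, in planar cell polarity and calcium signalling, and directs cell movement and tissue elongation in the embryo. ROR1 is a single-pass receptor of the tyrosine kinase family with little or no kinase activity of its own. It binds WNT5A through a cysteine-rich domain resembling that of the Frizzled receptors, and is known as a protein of embryonic tissues that reappears in some cancers.

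All 6 peaks lay in the 3'UTRs of both genes, in the last exon. The transcript sequences at their summits, the positions of highest read coverage, are printed here because they are what the peak calls point to in each mRNA. Each is 30 bases of the hg19 (GRCh37) genome, written 5′ to 3′ along the mRNA. Capitals mark bases inside the interval that both replicates shared. WNT5A is on the minus strand, and the windows around its summits are chr3:55501988-55502017 in replicate 1 and chr3:55502017-55502046 in replicate 2. ROR1 is on the plus strand, and the window around its shared summit is chr1:64645707-64645736. The windows around the summits of replicate 1 alone are chr1:64645130-64645159 and chr1:64645515-64645544. The replicate 2 summit of ROR1 lay 1 base away from the shared summit of replicate 1 and is not repeated.
WNT5A, replicate 1: TTATTGCATAATGATATTCACATCCCCTCA
WNT5A, replicate 2: tatcacctcagccaactgTGGCTCTTAATT
ROR1, shared summit, replicate 1: TATTTTGCAAAATATGATGGTCTTCCTAAA
ROR1, first summit of replicate 1 alone: gtcgttgtgcttctttgggaaggtgtagag
ROR1, middle summit of replicate 1 alone: cgaggcattggagtgcttatggtcaatggg

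The authors called peaks at an FDR of 0.05, setting each F-MARF1ΔNYN replicate against its own numbered control and ignoring strand. For each peak their lists give a fold enrichment, the ratio of reads at the summit to the local background with 1 added to each, and a q-value. Reads at the summit and the background were solved from the fold enrichment and the Poisson p-value of each peak. Reads were extended to 100 bp before calling, so a peak is at least about that wide and its summit is not the crosslinked base. Of 20149 protein-coding genes, 100 (0.496%) had an interval in the final list. In an exon, 354 genes (1.76%) had a peak in replicate 1 and 235 (1.17%) in replicate 2. WNT5A and ROR1 are in all 3 sets, as the way they were chosen requires, and nothing is read from that.

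WNT5A, the ligand, had 1 peak in each replicate. Its gene (ENSG00000114251) spans 24825 bp on chromosome 3, from 55499743 to 55524567, and its 3'UTR runs for 4377 nt. In replicate 1 the peak covered 55501915 to 55502028. It had 8 reads at the summit over a background of 0.803, a fold enrichment of 4.99 and a q-value of 0.00488. In replicate 2 it covered 55501983 to 55502084, with 7 reads over a background of 0.200, a fold enrichment of 6.38 and a q-value of 1.03e-04. Counting error alone gives 95% Poisson intervals of 3.45 to 15.8 and 2.81 to 14.4 reads, which overlapped. Library totals are unknown and both counts had to be high enough for a call, so the overlap is no measure of agreement. The background at the replicate 1 summit allows at most 1 control read within 100 bp, and that of replicate 2 allows 0.

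Both WNT5A peaks lay near the middle of the 3'UTR, with summits 2117 and 2088 nt after the stop codon, or 48.4% and 47.7% of its length. They overlapped by 46 bp, which is 40.4% of the peak of replicate 1 and 45.1% of that of replicate 2. The summits were 29 bp apart, and that of replicate 1 lay inside the shared interval while that of replicate 2 lay just outside it. Over all 282 intervals the median length was 120.5 bp and the median distance between summits 49 bp. Only 22 intervals were no longer than that of WNT5A, while 174 had summits at least as far apart. Its overlap was short for this list and its summit distance was not unusual.

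ROR1, the receptor, had 3 peaks in replicate 1 and 1 in replicate 2. Its gene (ENSG00000185483) spans 407494 bp on chromosome 1, from 64239688 to 64647181, and all 4 peaks lay in the 2643 nt of its 3'UTR. The peak of replicate 1 that replicate 2 shared covered 64645683 to 64645784, with 5 reads over a background of 0.0546, a fold enrichment of 5.69 and a q-value of 3.42e-06. The peak of replicate 2 covered 64645639 to 64645816, with 9 reads over 0.200, a fold enrichment of 7.96 and a q-value of 1.25e-07. Their Poisson intervals, 1.62 to 11.7 and 4.12 to 17.1 reads, overlapped. Both backgrounds allow 0 control reads within 100 bp.

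The ROR1 peaks coincided closely. The summits lay 1184 and 1183 nt after the stop codon (both 44.8% of the 3'UTR), and a distance of at most 1 bp was found at 14 of the 282 intervals (4.96%). The shared interval took up 102 bp, which is 100% of the peak of replicate 1 and 57.3% of that of replicate 2.

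The other 2 ROR1 peaks were called in replicate 1 alone, nearer the stop codon. The first covered 64645106 to 64645229, with its summit 607 nt after the stop codon, 6 reads over a background of 0.241, a fold enrichment of 5.64 and a q-value of 3.54e-04. The middle peak covered 64645346 to 64645603, with its summit at 992 nt, 5 reads over 0.0546, a fold enrichment of 5.69 and a q-value of 3.42e-06. It had the same reads and background as the peak that was shared, which makes their fold enrichments and q-values equal. That background allows 0 control reads within 1000 bp and was the lowest of the replicate 1 list. The 3 peaks of replicate 1 were separated by gaps of 116 and 79 bp, and the middle peak ended 35 bp before the peak of replicate 2, against 409 bp for the first. Counted once, the bases in peaks made up 21.2% of the ROR1 3'UTR (560 nt) and 3.88% of the WNT5A 3'UTR (170 nt).

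**Figure D1:**
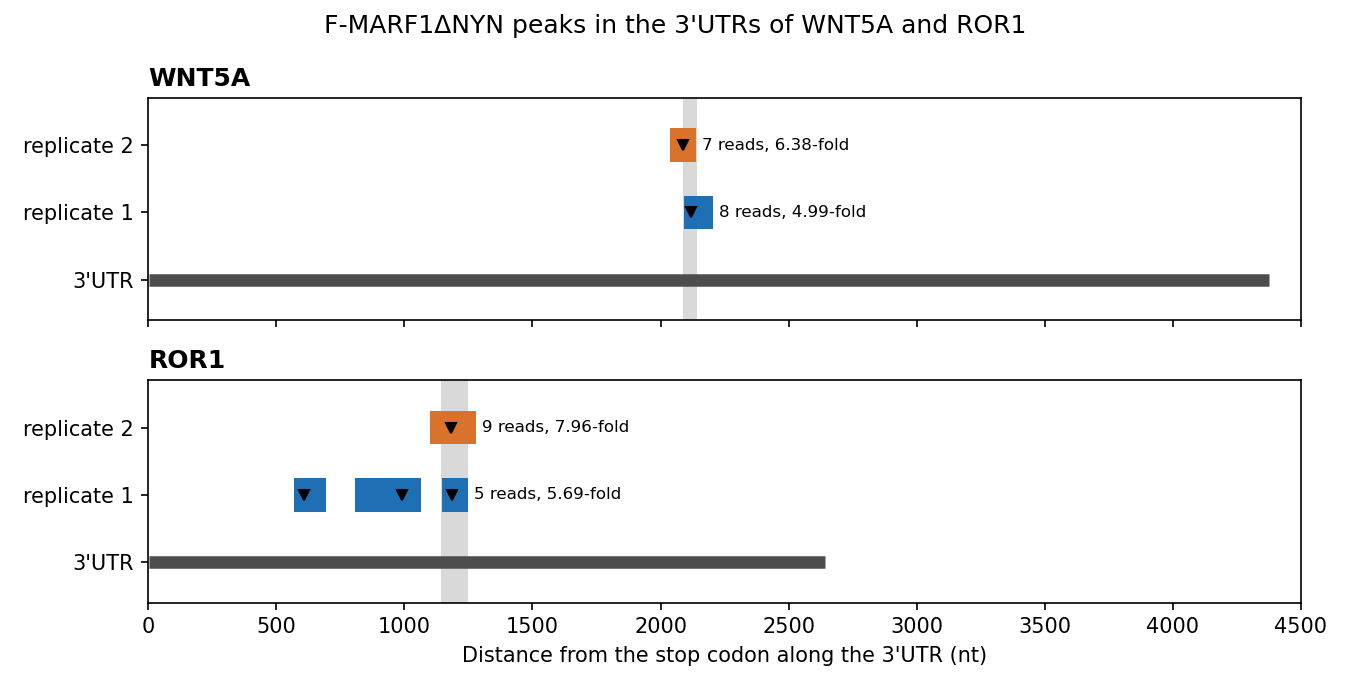
Peaks along the 3'UTRs of WNT5A (top) and ROR1 (bottom), as distance from the stop codon in nt. Blue bars are peaks of replicate 1, orange bars peaks of replicate 2, triangles their summits and grey shading the interval shared by both, and the labels give reads at the summit and fold enrichment of the overlapping peaks. In WNT5A the 2 peaks overlap in part, while in ROR1 the shared summits line up and 2 further peaks of replicate 1 lie nearer the stop codon.

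The depth sets what a missing peak can mean. The weakest p-value in each list, a −log10 of 5.26 in replicate 1 and 5.54 in replicate 2, gives the fewest reads that could be called at a given background. WNT5A needed 7 reads in replicate 1 and had 8, and needed 5 in replicate 2 and had 7. The shared ROR1 peak needed 3 reads in replicate 1 and had 5, and needed 5 in replicate 2 and had 9. The WNT5A peak of replicate 1 therefore stood 1 read above the limit. Even at the lowest background of the replicate 2 list, 0.0578, a call took 4 reads, so up to 3 reads at the ROR1 sites seen in replicate 1 alone would not have been detectable as a peak at this depth. Reads at those sites in replicate 2 were not measured here.

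**Figure D2:**
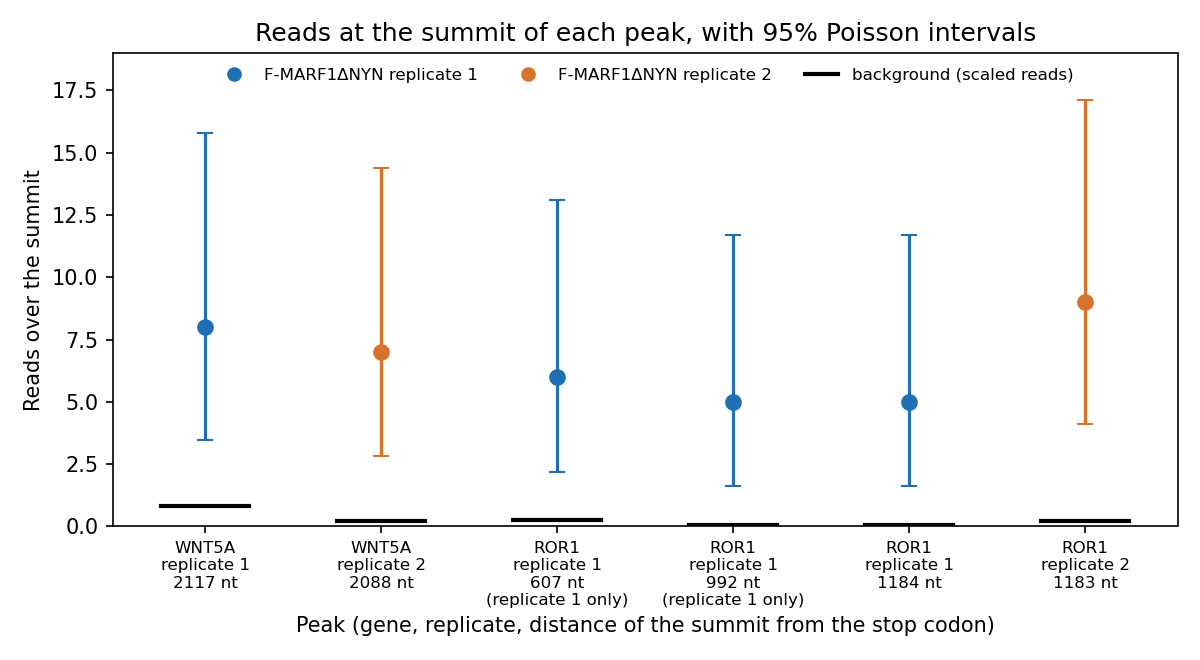
Reads over the summit of each of the 6 peaks (points, blue for replicate 1 and orange for replicate 2) with 95% Poisson intervals, which cover counting error only. Black bars give the background at each summit in scaled reads. Each peak rests on 5 to 9 reads, and the intervals all overlap one another.

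By fold enrichment and q-value WNT5A stood low in both peak lists and ROR1 nearer their middle. By fold enrichment the WNT5A peaks ranked 590 of 719 and 390 of 534, above 16% and 23.8% of the peaks of their replicate, whose medians were 6.12 and 7.50. A larger q-value than that of WNT5A was given to 6.54% of the peaks of replicate 1 and 15.5% of those of replicate 2. The shared ROR1 peaks ranked 438 and 228 by fold enrichment, above 36.9% and 55.6% of the peaks, and 57.0% and 49.4% of peaks had a larger q-value. By reads at the summit the order in replicate 1 was the reverse, with WNT5A ranked 325 and the shared ROR1 peak 550 of the 717 peaks whose reads were solved. In replicate 2 they ranked 444 and 341 of 528.

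Among the genes of the final list both were below the median. Taking the fold enrichment of the weaker replicate, WNT5A (4.99) ranked 103 and ROR1 (5.69) ranked 87 of 117 genes, where the median was 7.21 and the range 3.97 to 19.4. By reads at the summit, WNT5A ranked 87 in replicate 1 and 105 in replicate 2, and ROR1 ranked 113 and 92, against medians of 12 and 15 reads over the 117 and 116 genes whose reads were solved. Having a single interval was common, found for 61 genes (52.1%) whose median was 5.93, compared with 8.50 for genes with more, for which the best of several intervals was taken, a higher value by construction. Both members had a higher fold enrichment in replicate 2, by 1.28 times for WNT5A and 1.40 times for ROR1, as did 188 of 282 intervals (66.7%).

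**Figure D3:**
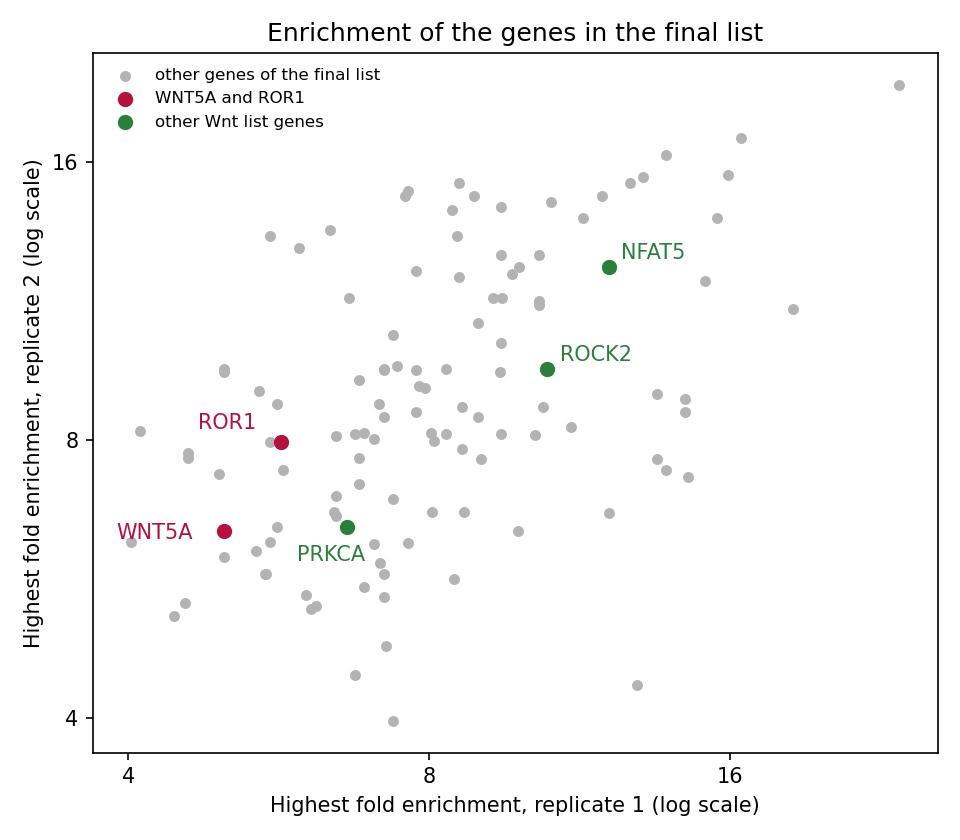
Highest fold enrichment of each of the 117 genes of the final list in replicate 1 (x axis) and replicate 2 (y axis), both on a log scale. WNT5A (4.99 and 6.38) and ROR1 (5.69 and 7.96), in red, lie towards the lower left, below NFAT5 and ROCK2, which are shown in green with PRKCA.

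The genes whose pair of highest fold enrichments lay nearest to that of WNT5A, by distance on the log2 scale over the 2 replicates, were NUDT21 (4.99 and 5.97, distance 0.095), FOXC1 (5.37 and 6.06, distance 0.129) and NAT8L (5.55 and 6.20, distance 0.157). NUDT21 is a subunit of the factor that steers the choice of mRNA 3′ ends, FOXC1 a forkhead transcription factor and NAT8L the enzyme that makes N-acetylaspartate. Nearest to ROR1 were AP003068.18 (5.55 and 7.96, distance 0.037), PURB (5.71 and 7.42, distance 0.102), a protein that binds purine-rich single strands, and CDON (5.64 and 8.76, distance 0.137), a cell surface co-receptor for Hedgehog proteins. The distance between WNT5A and ROR1 was 0.372, with ROR1 the 17th nearest gene to WNT5A and WNT5A the 24th nearest to ROR1. The ligand and the receptor were not each other's closest match. Similar enrichments did not mean similar depth, since NUDT21 had 16 and 9 reads where WNT5A had 8 and 7.

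The rest of the Wnt pathway was described with a list of 122 genes, all present in the annotation. An interval in the final list was found for 5 of them (4.1%), and for 3 of 120 (2.50%) without WNT5A and ROR1, beside 0.496% of all protein-coding genes. A peak in an exon was found for 5 (4.1%) in replicate 1 and for 6 (4.92%) in replicate 2. Without WNT5A and ROR1, which had to have such peaks, these were 3 of 120 (2.50%) beside 1.76% of all protein-coding genes, and 4 of 120 (3.33%) beside 1.17%. No test was made of these shares, the counts are small, and transcript levels, on which a peak call also depends, were not measured. The list was drawn up with earlier results of these data known, so its shares are not independent of the peaks. It also counts NFAT5 under Wnt calcium signalling, although that factor does not respond to calcineurin. No excess of Wnt genes is read from these values. WNT5A was the only 1 of 19 Wnt ligands with an interval, and ROR1 the only 1 of 7 co-receptors. Both were chosen for having an interval, and no other ligand or co-receptor had one. None of the 10 Frizzled receptors had a peak in an exon in either replicate.

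The other 3 genes were listed under planar cell polarity or Wnt calcium signalling. ROCK2, a kinase that contracts the actomyosin cytoskeleton and the only 1 of 26 planar cell polarity genes, had 3 shared intervals in its 3'UTR. Their fold enrichments were 8.86 and 8.81, 10.5 and 8.08, and 6.45 and 9.54 in replicates 1 and 2, from 7 to 12 reads. ROCK2 had 6 peaks in replicate 1 and 3 in replicate 2, NFAT5 had 6 and 4, and PRKCA had 1 and 2, where the whole lists hold 719 and 534.

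PRKCA and NFAT5 were the 2 genes among 21 of the Wnt calcium group. PRKCA, the calcium-dependent protein kinase C alpha, had 1 shared interval with 7 reads in each replicate and fold enrichments of 6.62 and 6.43, near the end of its 3'UTR at 5941 and 5913 of 6706 nt. NFAT5, a transcription factor of the NFAT family that responds to salt stress and not to calcineurin, had 2 shared intervals in a 3'UTR of 8303 nt. The stronger had 16 and 21 reads and fold enrichments of 12.1 and 12.3, and the other 17 reads in each replicate and 9.98 and 10.1. Among the shared peaks of the 5 genes, those of NFAT5 had the most reads, and that of WNT5A had the lowest fold enrichment in each replicate.

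**Figure D4:**
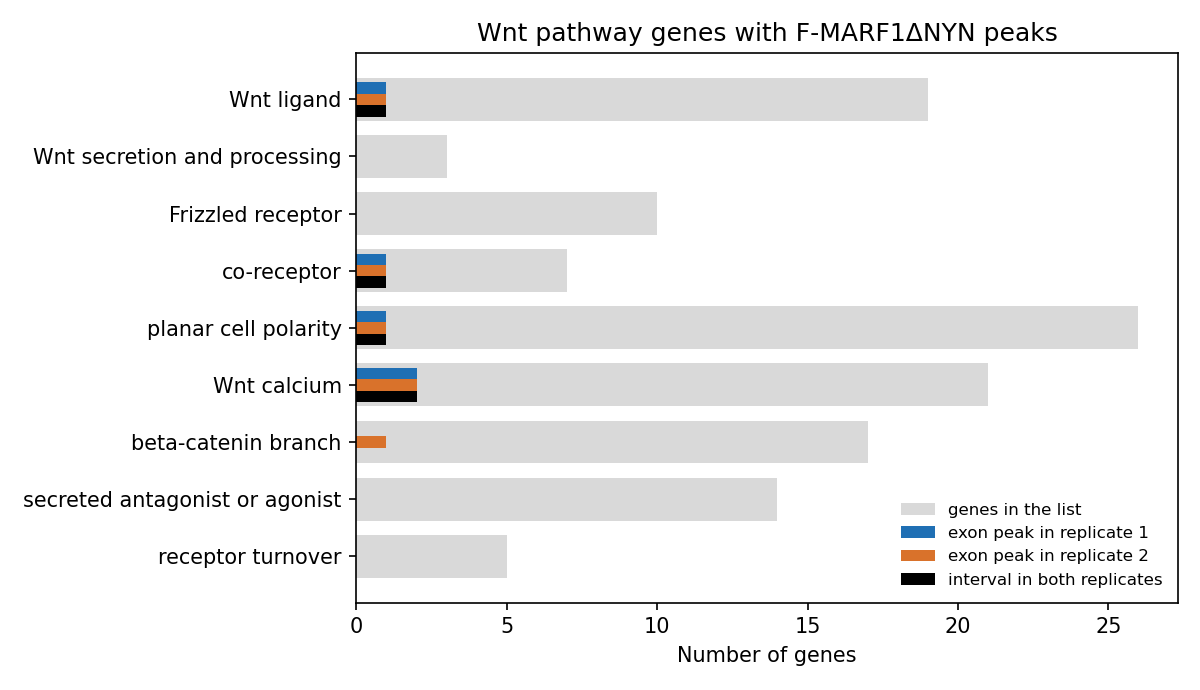
Number of genes of the Wnt list by role (grey bars) with those that had an exon peak in replicate 1 (blue), an exon peak in replicate 2 (orange) and an interval shared by both in the final list (black). Shared intervals were found for 1 of 19 ligands, 1 of 7 co-receptors, 1 of 26 planar cell polarity genes and 2 of 21 Wnt calcium genes. The ligand and the co-receptor are WNT5A and ROR1, which were chosen for having an interval.

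Position and sequence were not used to choose the genes. The middle of the shared interval lay 2115 nt after the stop codon in WNT5A (48.3% of the 3'UTR) and 1195 nt in ROR1 (45.2%). Over 201 intervals of 92 genes the median was 52.9%, with quartiles of 31.3 and 71.4%. Both members were within the central part of this range, 2262 and 1448 nt from the annotated end of the mRNA.

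The shared interval of ROR1 was poor in G and C, and that of WNT5A less so. The GC content was 37% in WNT5A and 30.4% in ROR1, beside a median of 45.5% over 170 3'UTR intervals of 79 genes. These are fewer than the 201 intervals used for position. In that set 20.6% of intervals were lower than WNT5A and 7.06% lower than ROR1. Over 100 bases at the summit the WNT5A values were 39.0 and 43.0% in replicates 1 and 2, nearer the medians of 44.5 and 45%, so the lower value rests on the 46 bases of the interval. The remaining 3'UTR outside the peaks held 34.6% in WNT5A and 31.9% in ROR1, so both intervals were close to the composition of the 3'UTR around them. The ROR1 peaks of replicate 1 alone differed from the shared one, with 44 and 49% over 100 bases at the summit, where the shared summit had 32.0%.

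The predicted folding energy of 100 bases at the summit, in which a lower value means a more stable fold, followed the same order within ROR1. It was -8.30 kcal/mol at the shared ROR1 summit in both replicates, and 98.2% and 99.4% of the windows of the 170 3'UTR intervals were lower. Intervals that share a peak repeat its window, so these windows are not all distinct. At the summits of replicate 1 alone it was -22.1 and -25.1 kcal/mol, beside a median of -22.1 over all windows of replicate 1. In WNT5A, where the summits were 29 bp apart, it was -24.9 at that of replicate 1 and -15.4 at that of replicate 2. The value in WNT5A thus depended on which replicate placed the window. The windows of the shared ROR1 summit are 1 base apart, so their equal values are not independent. These are predictions for short windows out of their transcript. Within ROR1 the summits of higher GC content had the lower energies, while in WNT5A the summit with the higher GC content had the higher energy. The part of GC content in these values was not tested.

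**Figure D5:**
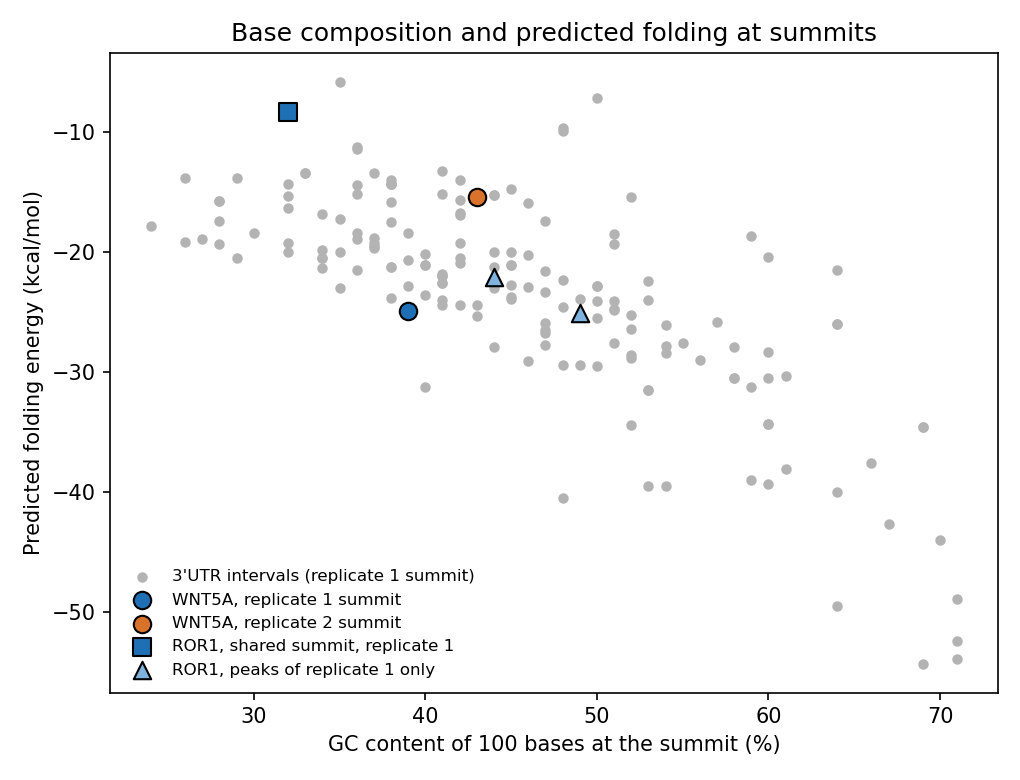
GC content (x axis, %) and predicted folding energy (y axis, kcal/mol) of 100 bases at each summit. Grey points are the 170 3'UTR intervals at their replicate 1 summit, circles WNT5A, the square the shared ROR1 summit of replicate 1 and triangles the ROR1 peaks of replicate 1 alone. The shared ROR1 summit, at 32.0% and -8.30 kcal/mol, lies near the top, and its other summits lie in the middle of the points.

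Short motifs were searched on the transcript strand in the same 100 bases at the shared summits. ATTTA, the core of AU-rich elements, was found 1 time in each WNT5A window, 16 nt from the replicate 1 summit, and 0 times in the windows of the shared ROR1 summit, beside 27 of 170 windows (15.9%). It also occurs 15 times in the whole WNT5A 3'UTR and 7 times in that of ROR1. AATAAA, the polyadenylation signal, and TGTANATA, the word bound by Pumilio proteins, were in 0 of these windows of either gene, beside 10 (5.88%) and 5 (2.94%) of the 170. The longest word that the windows of both genes shared was TCAGTTG, 7 letters, where the median over 3081 pairs of genes was 6 and 45.4% of pairs shared a word at least as long. A shared word of this length was thus common. A match is a description of the letters and not a binding site.

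None of the 6 peak sequences matched an annotated transcript of another gene at 95% identity over 90% of its length, while copies elsewhere in the genome were not searched. The deposited annotation also puts both intervals in 3'UTRs, in exon 5 of 5 for WNT5A and exon 9 of 9 for ROR1. The intervals' support differed with the definition of a shared peak. Requiring a q-value below 0.001 in both replicates, a reciprocal overlap of 50%, or each summit to lie inside the other peak left 0 shared intervals for WNT5A, whereas ROR1 kept its 1 interval under each. Failing the overlap of 50% was common, since 140 of the 282 intervals passed it and the median reciprocal overlap was 49.8%, beside 40.4% for WNT5A and 57.3% for ROR1. Without replicate 2, ROR1 would count 3 peaks, and without replicate 1 it would count 1.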

How the data were processed

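The authors sequenced biological duplicate libraries as 50 bp reads and trimmed them with Trimmomatic 0.32. Alignment to the hg19 genome (GRCh37) used STAR 2.3.0e, with up to 10 genomic matches of a read allowed by the methods of the study, whereas its results text speaks of multi-mapping reads as removed. Which of these holds for the lists was not checked. Before peak calling, Picard 2.10.7 and SAMtools 1.9 were used to keep primary alignments only and to drop marked duplicates. MACS2 2.1.1 called peaks per replicate with an extension of 100 bp at an FDR of 0.05, and HOMER 4.10 annotated the intersection. Each deposited peak has a score, a fold enrichment (a ratio on the linear scale), a −log10 p-value and a −log10 q-value. The lists hold no values per library, so library totals are unknown, and the number of per-sample columns not used was 0.

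Members were the intervals with either symbol plus peaks overlapping the gene bodies by 1 bp in GENCODE release 44 on GRCh37, whose coordinates give the gene models and, with the genome, the sequences. Whole reads at the summit solved 717 of 719 and 528 of 534 peaks (99.7 and 98.9%) within 0.001 on the −log10 p-value, with read weights of 1.00 and 0.951. Folding energies came from ViennaRNA 2.7.2 and copies were sought with blastn 2.17.0. Python 3.11.15, numpy 2.4.6, pandas 2.3.3, scipy 1.17.1 and matplotlib 3.10.9 were used.

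The genes named are WNT5A, ROR1, every Wnt list gene in the final list, and for each member the 3 genes nearest by log2 fold enrichment. TCF7L2 falls outside this rule and was chosen after its values were seen. The members and lists were chosen with earlier results of these data known, so no test was made. Alternatives were stricter q-values (0.01 and 0.001), other overlap rules, other gene assignments, other windows and each replicate alone.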

Additional observations from a re-analysis of the deposited data

How the results depend on the processing

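Of 42 alternatives, 31 left the value within its stated range and 11 moved it. The shared intervals of WNT5A fell from 1 to 0 with a q-value below 0.001 in both replicates, to 0 with a reciprocal overlap of 50% and to 0 with each summit required inside the other peak, since its peaks overlap in part, the summit of replicate 2 lay outside the other peak and the q-value of replicate 1 was 0.00488. Its peaks in the gene body fell from 2 to 1 with a q-value below 0.001, and leaving out a replicate gave 1 and 1. Its fold enrichment in the lower replicate, 4.99, ranged from 4.99 to 6.38 without a replicate. For ROR1, where a single replicate leaves no overlap to require, the peaks of the remaining replicate stood in for shared intervals and numbered 1 to 3, as did peaks in the gene body, with a fold enrichment of 5.69 to 7.96. The pooled GC content of both intervals, 32.4%, was 37.5 to 40.8% without a replicate. A single replicate has no shared interval, so these values cover other bases and are not an effect of the replicate alone. The Wnt list count of 5 stayed within 4 to 6. Each F-MARF1ΔNYN library was set against its numbered control within the peak calling itself. No further paired analysis was made, because no values per library were used. With 5 to 9 reads at each summit and 2 replicates, the Poisson intervals of the replicates overlapped. The smallest difference in reads that could be detected at this depth was not estimated. Strand was ignored in calling.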

Other observations

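TCF7L2, a transcription factor that carries the beta-catenin branch to target genes, is the Wnt list gene with exon peaks in replicate 2 and no shared interval, and was singled out after its values were seen. It had 3 peaks in its 3'UTR of 1706 nt, with summits 587, 1066 and 1549 nt after the stop codon. The fold enrichments were 6.83, 10.9 and 5.25, from 9, 15 and 10 reads. The middle peak, with a q-value of 1.89e-13, had a higher fold enrichment than either peak of WNT5A or any of the 4 peaks of ROR1, yet replicate 1 had no exon peak in this gene.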
